A study of Mus musculus with 4 samples.

Results

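The transcripts described here encode 10 proteins that hold epithelial cells together or form their filaments: the adhesion molecules Cdh1 and Epcam, the tight junction proteins Cldn4, Cldn6, Cldn7, Ocln and Tjp1, the simple-epithelium keratins Krt8 and Krt18, and vimentin (Vim). They were chosen by name, with earlier results of these data known, so counts among them are a description and not independent support. All 10 had a row among the 14533 genes of the deposited RNA table. The RNA came from mouse embryonic stem cells (ESCs) after over 20 days of adaptation to medium with serum and leukemia inhibitory factor (serum ESCs) or to serum-free Ndiff 227 medium with the same factor, the MEK inhibitor PD0325901 and the GSK3 inhibitor CHIR99021 (2i ESCs). Each condition had 2 libraries, made from sorted cells that the sample labels place in late G1-phase, although the series description speaks of early G1. Neither the genotype nor the cell line of the libraries is given in the labels, and the replicates, described as biological, are not further defined, so that p-values measure the spread between these libraries only.

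Mouse ESCs grow as compact colonies and are themselves epithelial in character. E-cadherin, the product of Cdh1, joins neighbouring cells at adherens junctions and is tied to actin by catenins, while claudins and occludin span the membrane at tight junctions and are bound inside the cell by scaffold proteins such as ZO-1, the product of Tjp1. Keratins form filaments from pairs of a type I and a type II chain, and in simple epithelia keratin 18 (type I) is the usual partner of keratin 8 (type II), while vimentin builds the filaments typical of mesenchymal cells, so that loss of E-cadherin with gain of vimentin is the classic sign of an epithelial to mesenchymal transition.

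Values are normalized counts, that is, reads per gene divided by a scaling factor of the library, and levels of different genes are compared only per kilobase of exon. The libraries held between 18939401 and 26570098 whole reads, of which protein-coding genes took between 46.9% and 76.3%. The libraries stood apart by replicate number as well as by condition: the first principal component of all genes separated replicate 1 from replicate 2 with 53.98% of the variance, and the second separated serum from 2i with 30.4%. The ESC factors Pou5f1, Sox2 and Nanog were high in every library, at 3523 normalized counts or more. In such bulk RNA, fewer cells that express a gene cannot be told apart from less RNA per cell.

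The 10 genes did not share a direction. Cdh1 stood at a similar high level in both conditions, Cldn4 and Cldn7 were several-fold higher in both 2i libraries, and Vim was higher in both serum libraries. Each gene was tested with limma on log2(normalized count + 1) over 13005 genes, those whose mean normalized count reached 50 in at least one condition. All 10 passed this filter, but Cldn7 passed only through its 2i values and Cldn6 only through its serum values. Calls required an adjusted p-value under 0.05 together with a 2-fold difference. Of the 10 genes 0 were called in either direction, where 0.0% of all genes tested were called higher in serum ESCs and 0.0154% higher in 2i ESCs. By the unadjusted p-value (under 0.05, with a 2-fold difference), 2 of 10 were higher in 2i ESCs (Cldn4 and Cldn7), against 3.0% of all genes, and 1 of 10 was higher in serum ESCs (Vim), against 2.97%. Both serum values lay below both 2i values for 4 of 10 genes, against 19.4% of all genes, and above them for 1, against 20.5%. The median log2 fold change of serum over 2i was -0.34 for the 10 genes and 0.0047 for all genes tested, but the former turned to 0.066 without 2i replicate 2. Among those of the 10 genes whose mean over the libraries reached 200, the median was -0.041, against 0.12 for all genes so filtered. The median absolute difference between replicates on the log2 scale was 0.72 in serum and 1.02 in 2i for the 10 genes, against 0.53 and 0.76 for all genes, so these transcripts varied more between replicates than the median gene did.

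**Figure D1:**
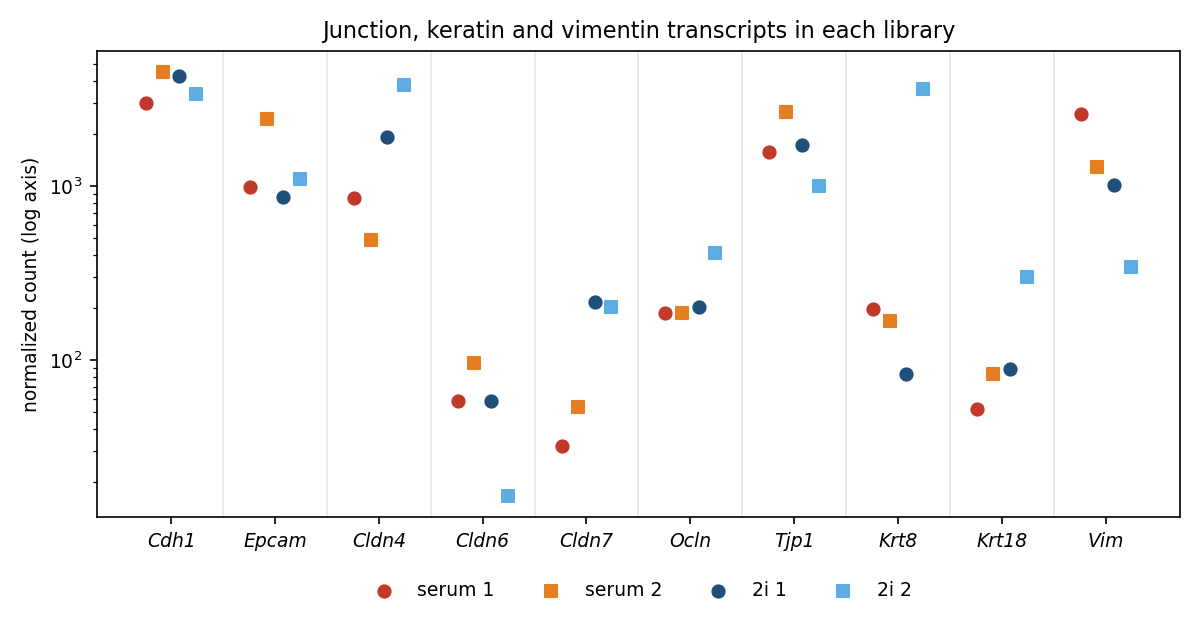
Normalized counts (log axis) of the 10 genes in each of the 4 libraries, with serum in red and orange, 2i in dark and light blue, circles for replicate 1 and squares for replicate 2. Both 2i points of Cldn4 and Cldn7 sit above both serum points, Vim shows the opposite order, and for Krt8 a single point, 2i replicate 2 at 3614, sits far above the other 3.

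Promoter sequences of the genes whose levels the results turn on are shown here, as RefSeq gives them for build GRCm38.p6, with coordinates from their exact and single match in the chromosome of build mm9 (NCBIM37), the build of the files. Each window runs 5′ to 3′ from 250 bases before an annotated transcript start to 50 bases after it. Capitals mark 4 short motifs searched on both strands: the E-box CAGGTG, which reads CACCTG on the other strand and which Snail and Zeb repressors recognise, the AP-1 motif TGANTCA, the GC box GGGCGG, which reads CCGCCC on the other strand, and the TATA box TATAAA, which reads TTTATA there. The only overlap between motif matches is at the Krt8 start, where both strands of the TATA box share bases. The windows are chr5:135422755-135423054 (minus strand) for Cldn4, chr11:69778673-69778972 (plus strand) for the downstream start of Cldn7, chr15:101834724-101835023 (minus strand) for Krt8, chr15:101858397-101858696 (plus strand) for Krt18 and chr2:13495688-13495987 (plus strand) for Vim. The Cldn7 and Vim windows lie inside the gene spans of GENCODE vM1, and the other windows enter theirs at the transcript start.
Cldn4: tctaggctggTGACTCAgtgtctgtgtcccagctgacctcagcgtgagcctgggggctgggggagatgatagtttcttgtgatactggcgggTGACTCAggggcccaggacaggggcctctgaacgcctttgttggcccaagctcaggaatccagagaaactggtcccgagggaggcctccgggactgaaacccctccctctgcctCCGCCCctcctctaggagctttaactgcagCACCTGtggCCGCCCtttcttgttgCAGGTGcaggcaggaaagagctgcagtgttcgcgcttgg
Cldn7: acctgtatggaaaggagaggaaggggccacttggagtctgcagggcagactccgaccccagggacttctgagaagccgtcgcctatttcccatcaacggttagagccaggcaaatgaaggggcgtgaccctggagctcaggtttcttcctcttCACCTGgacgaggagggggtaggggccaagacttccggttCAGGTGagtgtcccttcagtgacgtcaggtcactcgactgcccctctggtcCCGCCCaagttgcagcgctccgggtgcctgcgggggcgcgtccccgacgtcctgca
Krt8: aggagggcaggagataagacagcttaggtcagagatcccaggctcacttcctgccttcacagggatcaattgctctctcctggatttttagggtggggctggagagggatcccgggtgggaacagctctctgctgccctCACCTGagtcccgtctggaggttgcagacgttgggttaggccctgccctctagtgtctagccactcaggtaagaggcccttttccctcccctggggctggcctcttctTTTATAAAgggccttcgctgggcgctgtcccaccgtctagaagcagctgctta
Krt18: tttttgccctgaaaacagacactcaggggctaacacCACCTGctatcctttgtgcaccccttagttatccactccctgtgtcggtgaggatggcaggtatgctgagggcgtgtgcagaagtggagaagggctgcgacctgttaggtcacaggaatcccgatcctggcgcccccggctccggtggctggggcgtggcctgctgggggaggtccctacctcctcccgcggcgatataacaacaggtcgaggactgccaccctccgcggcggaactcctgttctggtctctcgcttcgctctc
Vim: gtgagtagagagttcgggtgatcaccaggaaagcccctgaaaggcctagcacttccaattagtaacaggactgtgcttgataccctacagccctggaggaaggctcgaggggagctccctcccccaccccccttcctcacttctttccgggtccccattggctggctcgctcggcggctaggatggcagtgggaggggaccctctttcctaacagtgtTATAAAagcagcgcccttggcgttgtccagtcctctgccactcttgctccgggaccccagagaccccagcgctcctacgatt

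RefSeq gave 11 such windows for 9 of the 10 genes, Cdh1 having no entry in the table used. An E-box was found in 8 of the 11 windows, from 7 genes (Cldn4, Cldn6, Cldn7, Epcam, Krt8, Krt18 and Ocln), whereas 20.2% of all 32851 promoter windows held one. Both Ocln windows overlap and share an E-box. The windows of Vim and Tjp1 held none. The window at the upstream start of Cldn7 (chr11:69778031-69778330), not shown above, also held no E-box and none of the other motifs searched. Cldn4, the claudin with the highest level, carried 2 E-boxes, first bases at -14 and 12 from the start, and 2 AP-1 motifs at -240 and -158, a motif present in 7.81% of all windows and in no other window of the 10 genes. Vim had a TATA box at -32, present in 13.6% of all windows, while a GC box, present in 35.7% of all windows, was found in 7 of the 11. A match is a description of these letters and not evidence of binding.

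The first genes considered are those of cell adhesion. Cdh1 (ENSMUSG00000000303, mm9 chr8:109127251-109194146, plus strand) had 3006 and 4519.8 normalized counts in serum replicates 1 and 2 (the order used throughout) against 4272 and 3366 in 2i. Both 2i values lay between the serum values, and the log2 fold change of serum over 2i was -0.041 (SE of 0.48; by limma, adjusted p-value 0.988), with a 95% interval of -1.19 to 1.11. These libraries therefore leave room for a difference of about 2-fold in either direction, and the sign turned when serum replicate 1 (0.25) or 2i replicate 1 (0.13) was left out. The adhesion molecule Epcam (ENSMUSG00000045394, chr17:88035319-88050446), which marks epithelia and associates with claudin-7, had 990.5 and 2421 normalized counts in serum against 865 and 1100.0 in 2i. Serum replicate 2 was high and the other 3 libraries were alike, so that the log2 fold change of 0.67 (SE of 0.56; by limma, adjusted p-value 0.778) became 0.022 without serum replicate 2, or 1.31 without the other serum library.

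The partners of E-cadherin were measured by a list of 10 adherens junction genes, of which 9 had a row and 9 were tested, Cdh2 (N-cadherin) having no row. None of the 9 was called with limma, edgeR or DESeq2. Of all genes, limma called 0.0% higher in serum ESCs and 0.0154% higher in 2i ESCs. The shares were 0.0% and 0.0% with edgeR, and 0.561% and 1.37% with DESeq2. By the unadjusted limma p-value (under 0.05, with a 2-fold difference), 0 were higher in serum ESCs, against 2.97% of all genes. None were higher in 2i ESCs, against 3.0%. The median log2 fold change of the 9 genes was 0.42. It ran from 0.078 without serum replicate 2 to 0.71 without 2i replicate 1. Beta-catenin (Ctnnb1), which binds the E-cadherin tail and also carries WNT signals, was the most abundant per kilobase, with 10050.2 and 11569 normalized counts in serum against 7032 and 11579 in 2i. Ctnnd1, which encodes the p120 catenin that keeps E-cadherin at the membrane, had 2237 and 3438 in serum against 1892 and 1380.3 in 2i (log2 fold change 0.78 with an SE of 0.47), and plakoglobin (Jup) had 1263 and 1398 in serum against 1603 and 2128 in 2i (log2 fold change -0.48 with an SE of 0.43). These were the genes of the list that lay furthest apart among those whose groups did not overlap, and neither reached 2-fold.

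Of the 10 genes, the claudins Cldn7 and Cldn4 had the largest fitted differences with limma. Cldn4 (ENSMUSG00000047501, chr5:135420996-135422804, minus strand, a gene of a single exon) encodes a claudin of simple epithelia. It had 849 and 489.9 normalized counts in serum against 1903 and 3828 in 2i. Both 2i libraries exceeded both serum libraries, the closest pair having a log2 difference (serum minus 2i) of -1.16, and the fitted difference put 2i ESCs 4.18-fold above serum ESCs (log2 fold change -2.06 with an SE of 0.55, 95% interval -3.38 to -0.75; by limma, p-value 0.00818, adjusted p-value 0.753). Replicate 1 minus replicate 2 was 0.79 in serum and -1.01 in 2i on the same scale, so the difference between conditions was larger than that between replicates. Cldn7 (ENSMUSG00000018569, chr11:69778281-69781387, plus strand) had 32.02 and 53.5 normalized counts in serum against 216 and 201 in 2i. Its 2i values nearly coincided, the closest pair across conditions had a log2 difference of -1.89, and 2i ESCs stood 4.93-fold above serum ESCs (log2 fold change -2.30 with an SE of 0.68, 95% interval -3.94 to -0.67; by limma, p-value 0.0132, adjusted p-value 0.753).

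Whether Cldn4 and Cldn7 count as called depended on the test. With DESeq2 on whole reads, the tool the study used, both were called higher in 2i ESCs (adjusted p-value 0.0274 for Cldn4 and 0.0392 for Cldn7), as were 1.37% of all genes tested, while edgeR on the same reads called neither (adjusted p-value 0.692 for each). The study's methods state a p-value under 0.05 and name no adjustment, so the cut-offs differ. By DESeq2, Krt8 (log2 fold change -3.35) and Vim (1.49) had unadjusted p-values of 0.0122 and 0.0485, and adjusted p-values of 0.2 and 0.376. Leaving out single libraries kept the log2 fold change of Cldn4 between -2.57 and -1.56 and that of Cldn7 between -2.66 and -1.94. The reads behind Cldn7 in serum were few, 32 and 55, against 208 and 207 in 2i. All 43-base words of both transcripts, the length of a read, were found nowhere else in the genome.

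Cldn6 (ENSMUSG00000023906, chr17:23816332-23819413, plus strand), a claudin of early embryonic epithelia, was the least abundant of the 10 genes. Its values were 58.0 and 96.2 normalized counts in serum against 58.1 and 16.5 in 2i, the last resting on 17 reads. Serum replicate 1 and 2i replicate 1 were level, and the log2 fold change of 1.24 (SE of 1.06; by limma, adjusted p-value 0.781) was 0.36 without 2i replicate 2. Its value thus rests on that library.

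Set side by side per kilobase with the other claudins of the lists that had a row (Cldn3, Cldn5 and Cldn12), the summed claudin level was 702 and 587 in serum against 1417 and 2517 in 2i. Cldn4 made up 66.9% and 46.1% of that sum in serum and 74.2% and 84.1% in 2i, and Cldn12 was next in all 4 libraries, with 19.8% and 33.9% in serum against 11.2% and 7.83% in 2i. Cldn12 itself had 565 and 812 normalized counts in serum against 645 and 803 in 2i, with overlapping groups and a log2 fold change of -0.087 (SE 0.45). Cldn3, which lies 39279 bases from Cldn4 with no gene between them, had 45.0 and 17.5 normalized counts in serum against 60.2 and 57.2 in 2i. It was lower in both serum libraries, as Cldn4 was, but by a log2 fold change of only -1.03 with an SE of 1.08.

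**Figure D2:**
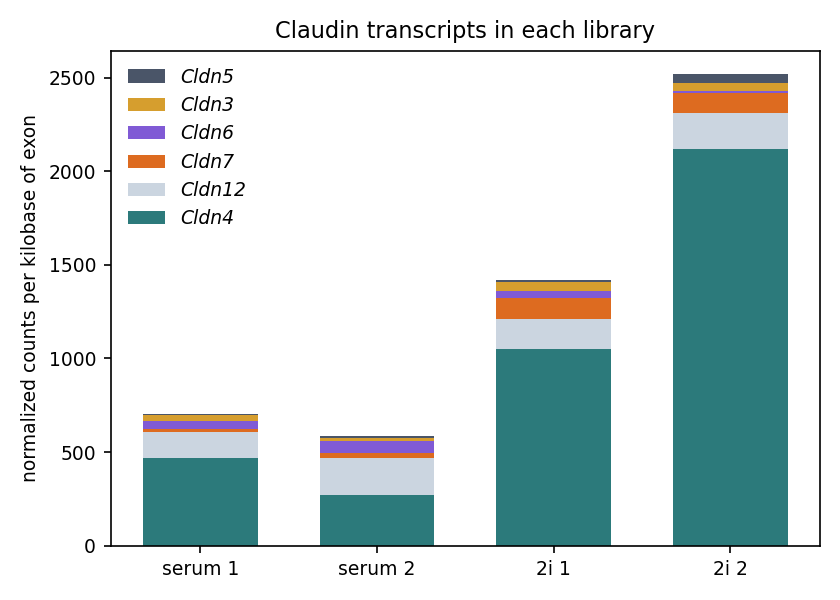
Normalized counts per kilobase of exon for 6 claudin genes, stacked, in each library (axis from 0). The sum was 702 and 587 in the serum libraries against 1417 and 2517 in the 2i libraries, and Cldn4 was the largest layer in all 4.

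The remaining tight junction genes showed smaller differences. Occludin (Ocln, ENSMUSG00000021638, chr13:101266462-101322673, minus strand), a membrane protein that seals the junction with the claudins, had 185 and 186 normalized counts in serum against 201 and 411 in 2i. The serum values nearly coincided and both lay below the 2i values, but the log2 difference of either from 2i replicate 1 was only -0.12, and the log2 fold change of -0.63 (SE of 0.55; by limma, adjusted p-value 0.785) fell to -0.12 without 2i replicate 2. Tjp1 (ENSMUSG00000030516, chr7:72441051-72516125, minus strand), whose product ZO-1 ties claudins to actin, had 1572 and 2662 normalized counts in serum against 1718 and 1004 in 2i. The groups overlapped, with a log2 fold change of 0.64 (SE 0.51, 95% interval -0.60 to 1.88; by limma, adjusted p-value 0.774).

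A list of 17 other tight junction and polarity genes gave the context of the claudins. Of these, 15 had a row (Cldn9 and Cldn23 had none) and 13 were tested, with a median log2 fold change of -0.48, which turned to 0.24 among genes whose mean over the libraries reached 200. With limma 0 were called. Both serum values lay above both 2i values for 4 of the 13, against 20.5% of all genes, and below them for 6, against 19.4%. Of the 13, Cldn3 and Marveld2 passed the filter only through their 2i values, and Cgnl1 only through its serum values. Cldn3 is among the 6 and Cgnl1 among the 4. By the unadjusted p-value with a 2-fold difference, 1 was higher in serum ESCs, against 2.97% of all genes, and 0 in 2i ESCs, against 3.0%. The 1 gene was Cgnl1, which encodes paracingulin, a linker of junctions to the cytoskeleton. It had 165 and 538 normalized counts in serum against 29.1 and 22.3 in 2i (log2 fold change 3.50 with an SE of 0.82; by limma, adjusted p-value 0.753), and DESeq2 on whole reads called it higher in serum ESCs (adjusted p-value 0.00194), as it did 0.561% of all genes. At the other end Inadl, which encodes the polarity scaffold PATJ, had 92.0 and 174 in serum against 311 and 293 in 2i (log2 fold change -1.25 with an SE of 0.56; by limma, adjusted p-value 0.753). Members of the tight junction thus stood on both sides of 0. Of the 10 genes described, Tjp1 and Cldn6 were on the serum side, with overlapping groups. Cldn4, Cldn7 and Ocln were on the 2i side, with groups that did not overlap. Neither claudin nor scaffold genes kept to a single side, Inadl being below 0 and Tjp1 above it.

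**Figure D3:**
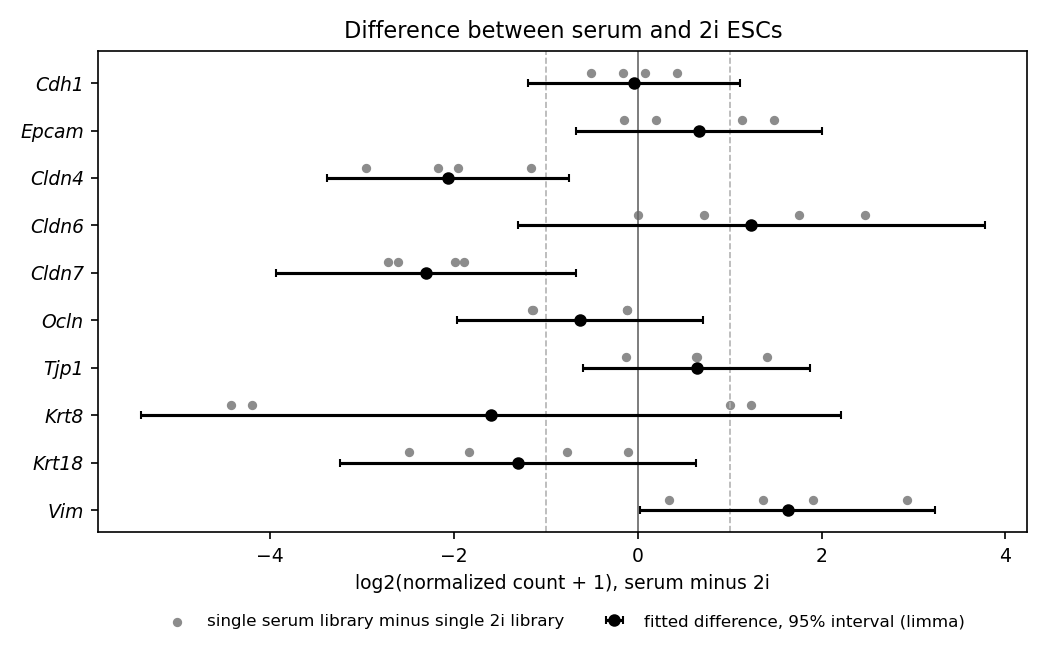
Log2 fold change of serum over 2i for the 10 genes, as the fitted value with its 95% interval (black, limma) and as the 4 differences between a single serum and a single 2i library (grey), with dashed lines at a 2-fold difference. All 4 grey points of Cldn4 and Cldn7 lie left of -1, the interval of Vim runs from 0.026 to 3.24, and the points of Krt8 fall into pairs on opposite sides of 0.

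The keratin pair was set apart by a single library. Krt8 (ENSMUSG00000049382, chr15:101827142-101834773, minus strand) had 196 and 167 normalized counts in serum, 83.1 in 2i replicate 1 and 3614 in 2i replicate 2. Replicate 1 minus replicate 2 was -5.43 in 2i on the log2 scale, further from 0 than the fitted difference between conditions of any gene named here, and 2i replicate 1 was the lowest of the 4 libraries. The log2 fold change of -1.60 (SE 1.58, 95% interval -5.41 to 2.21; by limma, adjusted p-value 0.809) became 1.12 without 2i replicate 2, or -4.31 without the other 2i library. On whole reads it was -3.36 with edgeR (adjusted p-value 0.692) and -3.35 with DESeq2 (adjusted p-value 0.2). Krt18 (ENSMUSG00000023043, chr15:101858647-101862457, plus strand) had 52.0 and 82.6 normalized counts in serum against 89.3 and 298 in 2i. Both 2i libraries exceeded both serum libraries, with a log2 difference of only -0.11 in the closest pair, and 2i replicate 2 was again the highest. Its log2 fold change was -1.30 (SE of 0.80; by limma, adjusted p-value 0.753), and -0.44 without 2i replicate 2.

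Krt8 and Krt18 are neighbours on chromosome 15, transcribed away from each other with 23873 bases and no annotated gene between them. Per kilobase, Krt8 exceeded Krt18 by 2.92 and 1.57 times in the serum libraries and by 9.41 times in 2i replicate 2, while in 2i replicate 1 the ratio was 0.722. The ratio of these usual partners thus spanned more than 10-fold within 2i ESCs. Of the 1763 words of 43 bases in the Krt8 transcript, 41.7% were found only in Krt8, and the other 1028 were also found in an intron of Nlrp4e on chromosome 7. Nlrp4e has no row in the table. For Krt18 97.1% of the words were its own. Reads of Krt8 can therefore be placed at both loci, and its level is less certain than that of the other members.

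Vim (ENSMUSG00000026728, chr2:13495554-13504453, plus strand) showed the opposite order, with 2604 and 1278 normalized counts in serum against 1013 and 341 in 2i. Both serum libraries exceeded both 2i libraries, but serum replicate 2 exceeded 2i replicate 1 by only 0.33 on the log2 scale. Serum ESCs stood 3.1-fold above 2i ESCs (log2 fold change 1.63 with an SE of 0.67, 95% interval 0.026 to 3.24; by limma, p-value 0.0474, adjusted p-value 0.753). Replicate 1 was the higher replicate in each condition, by 1.03 in serum and 1.57 in 2i, and the log2 fold change became 0.85 without 2i replicate 2, or 2.41 without the other 2i library.

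**Figure D4:**
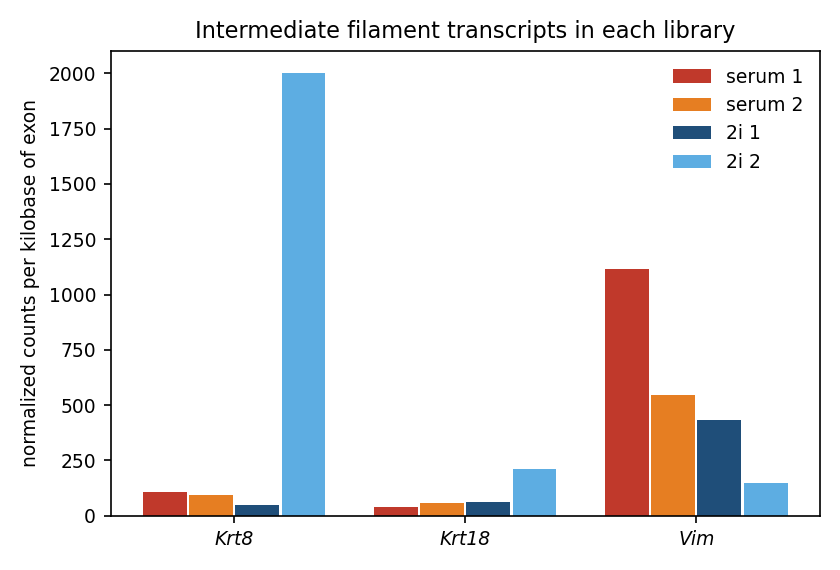
Normalized counts per kilobase of exon of Krt8, Krt18 and Vim in each library (axis from 0; a bar is a single library). Vim was the tallest bar in both serum libraries and in 2i replicate 1, where it stood at 1115, 547 and 434, and Krt8 was the tallest in 2i replicate 2 at 2002.

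Among these 3 filament genes Vim held 88.4% and 78.3% of the level per kilobase in serum and 79.8% in 2i replicate 1, but 6.19% in 2i replicate 2, in which Krt8 held 84.8%. The other filament genes did not follow a single pattern. Of 8 other keratins, 4 had a row (Krt5, Krt14, Krt19 and Krt20 had none) and 3 were tested. Krt42, the most abundant of them, had 323 and 245 normalized counts in serum against 129.8 and 242 in 2i. Of 10 other intermediate filament genes, 9 had a row (Gfap had none) and 9 were tested, with a median log2 fold change of 0.30. The most abundant was Lmnb1, which encodes the nuclear lamin B1, with 3899 and 8505 normalized counts in serum against 2402 and 2230.1 in 2i (log2 fold change 1.31 with an SE of 0.54; by limma, p-value 0.0479, adjusted p-value 0.753). Des, which encodes the muscle filament protein desmin, had 182 and 163 in serum against 298 and 660 in 2i (log2 fold change -1.36 with an SE of 0.56; by limma, p-value 0.0490, adjusted p-value 0.753). Lmnb1 and Des were the genes of the list that reached an unadjusted p-value under 0.05 with a 2-fold difference. That is 1 of 9 higher in serum ESCs, against 2.97% of all genes, and 1 of 9 higher in 2i ESCs, against 3.0%. Ina, a neuronal filament gene, had 88.0 and 364 in serum against 44.6 and 86.3 in 2i (log2 fold change 1.51 with an SE of 0.88), and Nefm, the medium neurofilament chain, had 80.0 and 53.5 in serum against 103 and 444 in 2i (log2 fold change -1.69 with an SE of 0.84).

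Further structures and the regulators of the epithelial state were read from lists. All 8 desmosome genes, whose products anchor keratin filaments at the membrane, were tested, Dsc2 passing the filter only through its 2i values. By the unadjusted limma p-value (under 0.05, with a 2-fold difference), 0 were higher in serum ESCs, against 2.97% of all genes. None were higher in 2i ESCs, against 3.0%. The median log2 fold change of the 8 genes was -0.44. This median turned to 0.051 without serum replicate 1, to 0.60 without 2i replicate 1 and to 0.39 among genes whose mean reached 200. Pkp4, the most abundant, had 1338 and 1627 normalized counts in serum against 1062 and 758 in 2i, and Pkp3 had 121 and 124 in serum against 178 and 188 in 2i. Of the 4 gap junction genes, which encode connexins, none had overlapping groups, with 2 higher in both serum libraries, against 20.5% of all genes, and 2 lower, against 19.4%. Gja1 (connexin 43) had 628 and 1362 normalized counts in serum against 281 and 441 in 2i (log2 fold change 1.39 with an SE of 0.55; by limma, p-value 0.0435, adjusted p-value 0.753).

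Among 11 epithelial regulators, 9 had a row and 8 were tested, with a median log2 fold change of -0.40. Of the 8, 7 were below 0, as were 6469 of all 13005 genes tested. Both serum values lay below both 2i values for 3 of the 8, against 19.4% of all genes, and above them for 0, against 20.5%. St14 encodes matriptase, a membrane protease that cleaves Epcam, and stood furthest from 0. It had 385 and 526 normalized counts in serum against 2341 and 1836 in 2i, so that the lowest 2i value was well above the highest serum value (log2 fold change -2.20 with an SE of 0.44; by limma, p-value 0.00208, adjusted p-value 0.753). DESeq2 on whole reads called St14 higher in 2i ESCs (adjusted p-value 0.00014), as it did 1.37% of all genes tested. The matriptase inhibitor Spint2, the most abundant per kilobase, had 582 and 1319 in serum against 1326 and 698 in 2i, with no separation. Of 9 mesenchymal genes, 5 had a row (Snai2, Twist2, Cdh11 and S100a4 had none) and 3 were tested. Their median was -0.23, which turned to 0.13 without 2i replicate 1. All 3 were below 0, as were 6469 of all 13005 genes tested, and Twist1 passed the filter only through its 2i values. Fibronectin (Fn1), the most abundant, had 7617 and 6750.5 normalized counts in serum against 15947 and 4411 in 2i, and Twist1 had 41.0 and 41.8 in serum against 89.3 and 143 in 2i (log2 fold change -1.42 with an SE of 0.77). The repressor genes Snai1 and Zeb2, whose products bind the E-box, did not pass the filter, with at most 56.1 and 58.1 normalized counts in any library, and Zeb1 had 99.1 and 250 in serum against 234 and 144 in 2i. Beside the higher Vim values of both serum libraries, Cdh1, Fn1 and Zeb1 had overlapping groups, and Twist1 was lower in both serum libraries. The part of an epithelial to mesenchymal transition in these values was not tested.

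**Figure D5:**
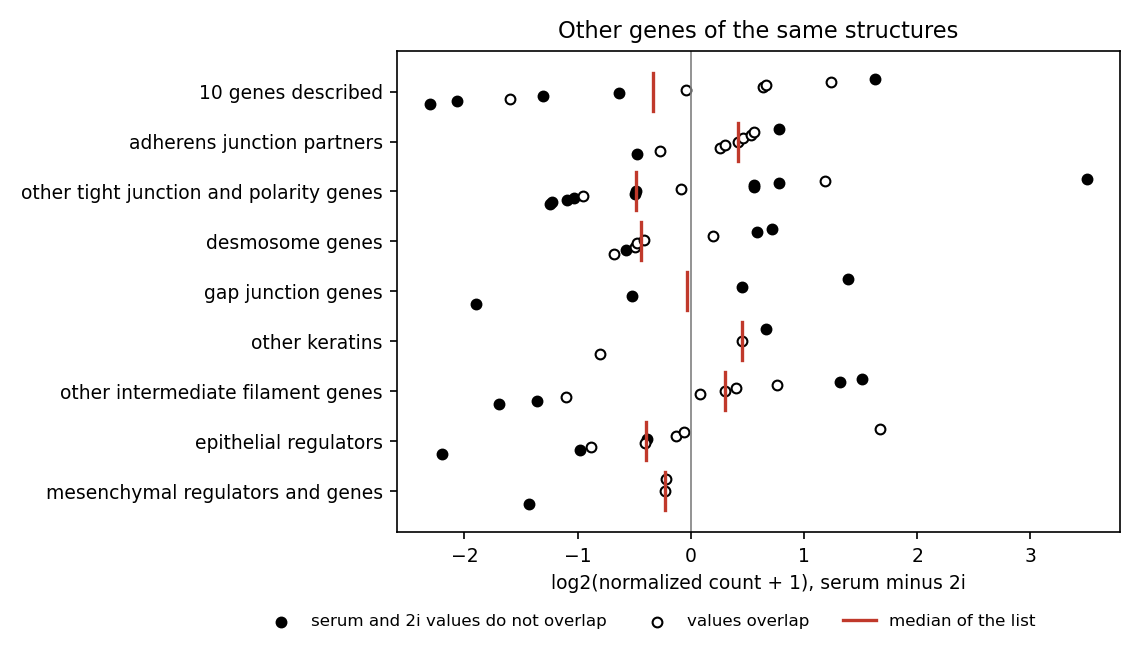
Log2 fold change of serum over 2i of the tested genes, a point per gene, for the 10 genes and the 8 lists of related genes; filled points are genes whose serum and 2i values do not overlap, and red lines are the list medians. Points of most lists lie on both sides of 0, and the medians run from -0.48 for the other tight junction and polarity genes to 0.45 for the other keratins.

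By level per kilobase averaged over the 4 libraries, the order of the 10 genes was Cldn4 (977), Cdh1 (829), Epcam (659), Krt8 (562), Vim (561), Tjp1 (236), Krt18 (93.2), Cldn7 (64.5), Ocln (58.2) and Cldn6 (38.0). Of the 9 steps between neighbours in this order, only that from Vim to Tjp1 held in all 4 libraries. Cldn4 exceeded Cdh1 in 2 libraries, both of 2i, and Krt8 exceeded Vim in 1. As a ratio of the highest to the lowest library, the spread of Cdh1 was the narrowest, with 657 to 988 per kilobase, and that of Krt8 the widest, with 46.0 to 2002.

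Markers of other cell types that express keratins or vimentin were read beside these values. Of 7 trophectoderm markers 4 had a row, and the sum of their normalized counts was 503 and 239 in serum against 2728 and 222 in 2i. Cdx2 had no row, and Elf5 had 118 and 80.7 in serum, 2215 in 2i replicate 1 and 85.4 in 2i replicate 2, so the library with high Elf5 was not the one with high Krt8. Eomes had 157 and 132 in serum against 233 and 111 in 2i, and Krt7 had 85.0 and 16.5 against 248 and 17.5. Gata3 was instead highest in serum replicate 1, with 143 and 9.72 in serum against 32.2 and 8.73 in 2i. The groups of all 4 trophectoderm markers overlapped. Of 9 primitive endoderm markers 6 had a row, summing to 1753 and 3954 in serum against 2338 and 1826 in 2i. Gata4, Gata6 and Sox17 were higher in both 2i libraries, with Gata4 at 13.0 and 42.8 in serum against 152 and 169 in 2i, Gata6 at 5.003 and 16.5 in serum against 87.2 and 27.2 in 2i, and Sox17 at 7.004 and 7.78 in serum against 33.2 and 33.0 in 2i. The groups of the other 3 overlapped, with Pdgfra at 47.0 and 41.8 in serum against 60.2 and 27.2 in 2i, Col4a1 at a log2 fold change of 1.42 and Lama1 at 0.25. Sox17 and Pdgfra did not pass the filter, and Gata4 and Gata6 passed it only through their 2i values. Of the 4 primitive endoderm markers tested, 2 had both serum values below both 2i values, against 19.4% of all genes. For 0 of the 4 they lay above, against 20.5%. Of 8 fibroblast markers 2 had a row, summing to 230.1 and 193 in serum against 199 and 58.2 in 2i. Col1a1 had 57.0 and 8.75 in serum against 68.5 and 50.4 in 2i, with a log2 fold change of -1.33 (SE of 1.30). Thy1 had 173 and 185 in serum, 131 in 2i replicate 1 and 7.76 in 2i replicate 2, with a log2 fold change of 2.40 (SE of 1.30). Vim and Thy1 were both lowest in 2i replicate 2, whereas Col1a1 was lowest in serum replicate 2. The part of such cells in the differences of Krt8, Krt18, the claudins and Vim was not tested.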

How the data were processed

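RNA of 4 libraries (2 serum, 2 2i) was measured by sequencing. Per the labels and the study's methods, the authors depleted ribosomal RNA from total RNA of sorted cells, sequenced single reads of 43 bases, aligned them to mm9 with Bowtie, estimated expression with MMSeq, which divides reads among transcripts they fit, and applied DESeq2; tool versions are not given in the sources used here. The deposited values are a signal, gene counts divided by a size factor per library. All values (100%) were whole multiples of a step per library (tolerance 0.01 reads), which gave back whole reads.

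Gene names, positions and exon lengths came from GENCODE vM1 (build mm9), which held 14462 of 14533 genes. Genes were tested with limma 3.58.1 (R 4.3.3) on log2(normalized count + 1), a pseudocount of 1, with a variance trend and no replicate term, over 13005 genes with a mean of at least 50 in either condition, adjusted by Benjamini-Hochberg. Fold changes on this scale understate those of low genes. edgeR 4.0.16 (quasi-likelihood) and DESeq2 1.42.0 were run on whole reads as alternatives. On simulated data for the 13005 genes at the estimated biological coefficient of variation of 0.668, limma called 0 of 200 genes changed 4-fold. It called 73 of 200 changed 16-fold, with 2 unchanged genes. Every gene was drawn with this same variation, independently and at equal library size. The replicate differences of the real libraries correlated across genes, so the simulation does not measure the power for single genes here. With 2 libraries against 2, an exact permutation test cannot go below a two-sided p-value of 0.333 and was not used. Words of 43 bases from each longest coding transcript were matched to both strands of mm9. The members and lists were chosen with earlier results of these data known. From each list were named the genes furthest from 0 on either side whose groups did not overlap, the most abundant per kilobase, and genes that pair with a member, except that some of the genes so chosen are not reported here. Cldn5, Cldn12, Des, Snai1, Zeb1, Zeb2 and the single markers given were chosen after their values were seen.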

Additional observations from a re-analysis of the deposited data

How the results depend on the processing

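Of the 10 genes, 0 were called higher in serum ESCs under every alternative run. Those called higher in 2i ESCs were 0 with limma, 1 with the replicate block (Cldn4, log2 fold change -2.06, adjusted p-value 0.0444, but 0.271 when GC content and length were also corrected for) and 2 with DESeq2 on whole reads (Cldn4, -2.11; Cldn7, -2.31); their adjusted p-values over the alternatives that keep all libraries reached down to 0.0274 and 0.0392. The log2 fold changes of Cldn4 (-2.18 to -1.70), Cldn7 (-2.42 to -1.91) and Vim (1.48 to 1.90) kept their direction under all of these. Leaving out each library in turn gave -0.34 to 0.25 for Cdh1 and -4.31 to 1.12 for Krt8, whose signs turned, and -0.51 to 0.066 for the median of the 10 genes. The replicate numbers are shared by the labels of both conditions, and the replicate differences of serum and 2i correlated across genes with r = 0.480, which with 2 pairs does not show that the numbers pair the samples.

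Over all genes, the calls (higher in serum, then higher in 2i) numbered 0 and 2 with limma, 44 and 159 with the replicate block, 1 and 0 with the replicate block after correction for GC content and length, 0 and 0 with that correction alone and with edgeR, 0 and 1 without the variance trend, 0 and 4 among genes whose mean reached 200, and 73 and 178 with DESeq2; without single libraries they were 0 and 0. Of the other tight junction genes 1 and of the epithelial regulators 1 was called with the replicate block and with DESeq2. The filter at a mean of 200, which removed Cldn6, Cldn7 and Krt18, put the median of the members that remained at -0.041. The same filter put list medians at 0.24 for other tight junction, 0.39 for desmosome, -0.64 for epithelial regulator and 0.84 for primitive endoderm genes. The GC content and length correction put other keratins at 0.87, also with the replicate block. Without single libraries the medians ran from 0.078 to 0.71 for adherens junction, -0.36 to -0.13 for other tight junction, -0.66 to 0.60 for desmosome, -0.63 to -0.25 for epithelial regulator, -1.09 to 0.13 for mesenchymal and -0.25 to 0.20 for ESC genes. Upper quartile scaling moved the median of all genes to -0.12. The cause of these changes was not tested. In data simulated at the estimated spread, limma without the replicate block called 0 of 200 genes changed 4-fold. That simulation gave all genes the same spread and no difference shared by replicate number.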
